A study of Mus musculus with 4 samples.

Results

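Il10-positive CD4 T cells without Foxp3 counts were described in single-cell counts from the mouse colon. The cells were selected on 2 genes: a kept barcode with at least 1 count of Il10 and 0 counts of Foxp3 was a member, which gave 120 of 1050 kept cells (11.4%, exact binomial 95% interval 9.57 to 13.5%). Their levels of Il10 and Foxp3 are therefore what defined them and are given only as a description. Il10 encodes the cytokine interleukin-10 (chromosome 1, 131019845 to 131024974, plus strand, mm10), and Foxp3 encodes the lineage transcription factor of regulatory T cells (chromosome X, 7573644 to 7595245, plus strand). The members, written Il10+ Foxp3-, were set against 146 Il10+ Foxp3+ cells and against 598 cells with neither gene, written Il10- Foxp3-. The remaining 186 Il10- Foxp3+ cells served as a further point of comparison.

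Interleukin-10 limits inflammation in the gut, and CD4 T cells are one of its main sources there. In the colon it is made both by Foxp3-expressing regulatory T cells (Treg cells) and by type 1 regulatory cells (Tr1 cells), which are Foxp3-negative CD4 cells recognised by surface LAG-3 and by the integrin CD49b, encoded by Itga2. Many genes counted as Treg genes, such as Ctla4, Icos, Tnfrsf18 and Tnfrsf4, are also induced in activated T cells that never express Foxp3, and Foxp3 is transcribed at a level at which droplet methods often record no count.

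Donors were male mice of the B6 strain, 6 weeks old. Lamina propria cells of their colon were sorted by flow cytometry on CD45, TCRb and CD4 and profiled by inDrops, which barcodes the RNA of single cells in droplets. The labels name 4 numbered samples of 1 group, Btheta_colon, with 1 library name, no further treatment or genotype and no control group. The barcodes of the counts table carry no sample, so all cells were treated as 1 pooled sample: no test was possible, no p-value is given, and every interval below is an exact 95% interval that covers counting error only. Differences between mice are not contained in these intervals.

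The 120 members held 173524 counts, against 230233 in the Il10+ Foxp3+, 284450 in the Il10- Foxp3+ and 860833 in the Il10- Foxp3- cells. Their depth ran from 527 to 4403 counts per cell with a median of 1285, against medians of 1348, 1255 and 1205 in the Il10+ Foxp3+, Il10- Foxp3+ and Il10- Foxp3- cells, so the 4 groups were of similar depth. The members made up 45.1% of the 266 cells with Il10 (39.0 to 51.3%) and 16.7% of the 718 cells without Foxp3 (14.1 to 19.6%). Il10 counts had a median of 2 and a range of 1 to 16 per cell both in the members and in the Il10+ Foxp3+ cells, and 51 cells of each group had exactly 1. Il10 was also counted in 2 of 63 cells with at least 2 naive markers, such as Tcf7, Lef1, Ccr7 and Satb1 (3.17%, median depth 1486 counts), and Foxp3 in 6 of those 63 (9.52%). The part of free RNA in the members' Il10 counts was not tested.

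Foxp3 sat close to the limit of detection in the cells that had it. Of the 146 Il10+ Foxp3+ cells, 58 had a single Foxp3 count, just outside the members' gate. If each of those 146 cells had kept 50% of its counts, 30.1% of them would be expected to hold no Foxp3 count, and at 25% of the counts the expected share was 57.3%. Median depth was 1285 counts in the members and 1348 in the Il10+ Foxp3+ cells. These shares describe the gate gene only and do not estimate how many members missed Foxp3. The members' share of the Il10+ cells was 43.8% in the shallowest, 52.3% in the middle and 39.3% in the deepest of 3 equal classes of depth, with intervals that overlap (33.3 to 54.7%, 41.4 to 63.0% and 29.1 to 50.3%). How many members missed an existing Foxp3 transcript was not tested.

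The members were CD4 T cells by their markers. Cd4 was counted in 62 of 120 members (51.7%), against 47.9% of the Il10+ Foxp3+, 36.0% of the Il10- Foxp3+ and 35.1% of the Il10- Foxp3- cells, and at least 1 of 16 genes of the CD4 T cell list in 119 of the 120 members. Markers of other cell types were near 0. The 5 B or plasma cell markers summed to 6 counts in the members, the 7 myeloid markers to 1, the 5 epithelial markers to 3, the 4 stromal markers to 2 and the 5 CD8 T or NK cell markers to 2, with 3, 6, 2, 2 and 4 of those markers at 0. Longer lists of the first 2 kinds held more, 82 counts for B or plasma cells and 71 for myeloid cells, of which Ighm gave 63 and Cst3 gave 69. Both genes were counted in all 4 groups, and Cd79a, Jchain and Lyz2 had 0 counts in the members. No member carried 2 or more of the B, plasma, myeloid, epithelial and stromal markers, which 20 of all kept cells did, and Scrublet called 1 member among 9 doublets.

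Ctla4, Icos, Tnfrsf18, Tnfrsf4 and Klrg1 stood at nearly the same level in the members as in the Il10+ Foxp3+ cells. Other genes of the Treg core list, given below, differed with counts not limited per cell. Ikzf2 and Penk were lower in the members, and Rgs1 and Itgae were higher. With 1 count per cell at most, the interval of each of these ratios to the Il10+ Foxp3+ cells contained 0. Levels are given as CPM, the counts of a gene in a group of cells per 1000000 summed counts of that group. Ctla4, an inhibitory receptor used by Treg cells, was at 2294 CPM in the members and at 2289 CPM in the Il10+ Foxp3+ cells, with 1571 CPM in the Il10- Foxp3+ and 635 CPM in the Il10- Foxp3- cells. In single members its counts ranged from 0 to 20 with a median of 2, against 0 to 16 with a median of 3 in the Il10+ Foxp3+ cells. Both groups thus overlapped over almost their whole range, and the log2 ratio of CPM was 0.00 (-0.19 to 0.19). The costimulatory receptor Icos was at 2103 CPM in the members and at 2102 CPM in the Il10+ Foxp3+ cells (log2 ratio 0.00, -0.20 to 0.20), against 818 CPM in the Il10- Foxp3- cells. Tnfrsf18, which encodes GITR, was at 1014 CPM in the members, 1029 CPM in the Il10+ Foxp3+ and 445 CPM in the Il10- Foxp3- cells. Tnfrsf4, which encodes OX40, was at 836 CPM in the members, 895 CPM in the Il10+ Foxp3+ and 274 CPM in the Il10- Foxp3- cells. The inhibitory receptor Klrg1 was at 859 CPM in the members, 799 CPM in the Il10+ Foxp3+ and 279 CPM in the Il10- Foxp3- cells. For Ctla4, Icos, Tnfrsf18, Tnfrsf4 and Klrg1 the interval of the members' ratio to the Il10+ Foxp3+ cells contained 0.

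**Figure D1:**
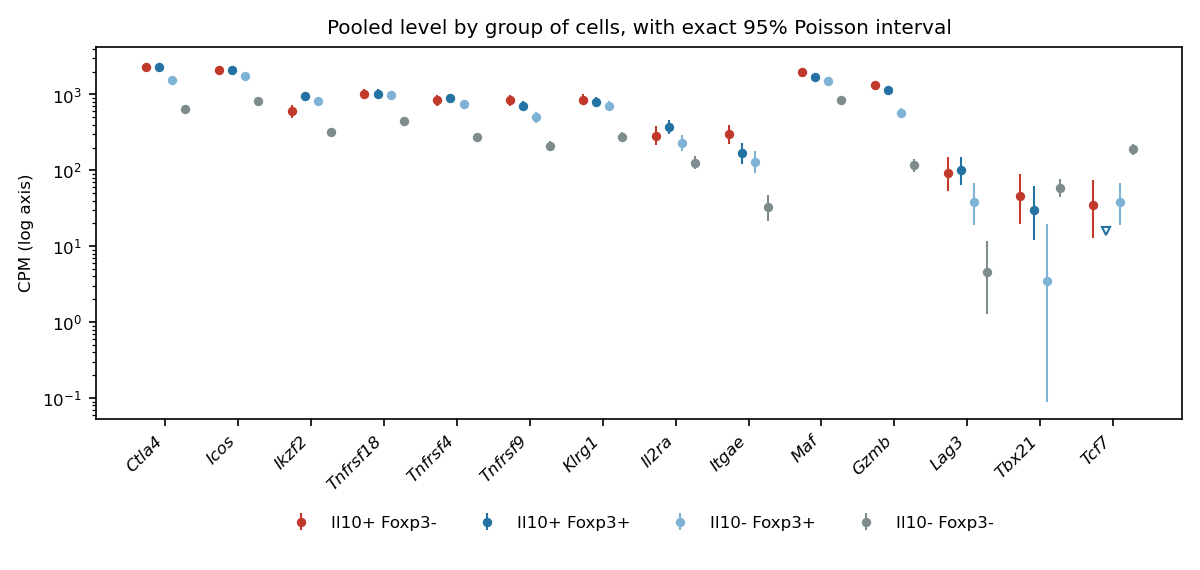
Level in CPM (log axis) of 14 genes in the pooled Il10+ Foxp3-, Il10+ Foxp3+, Il10- Foxp3+ and Il10- Foxp3- cells, with exact 95% Poisson intervals; the open triangle is the upper limit of a gene with 0 counts. Ctla4 at 2294 and 2289 CPM and Icos at 2103 and 2102 CPM nearly coincide in the members and the Il10+ Foxp3+ cells, and both lie above the cells with neither gene.

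Across the list of 30 Treg core genes, of which 26 had at least 10 counts in the members and Il10+ Foxp3+ cells together, 15 were higher and 11 lower in the members and the median log2 ratio was 0.01, beside -0.01 over all 5557 genes with that many counts. A difference of at least 1.5-fold was seen for 5 of the 26 upwards and 3 downwards. Among all 5557 genes 21.5% were at least 1.5-fold higher and 22.7% at least 1.5-fold lower, so the list's share of such genes was no larger than that of the table as a whole. The sign of so small a median depended on the scale, since normalisation by the trimmed mean of M values (TMM) moved all log2 ratios of this comparison by -0.12 and the list's median to -0.11.

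Against the cells with neither gene, all 26 measured Treg core genes were higher in the members, 23 of them by at least 1.5-fold, with a median log2 ratio of 1.19 beside -0.01 over all 8477 genes. The background shares in this comparison were 20% higher and 25.2% lower. The Il10+ Foxp3+ cells, set against the same 598 cells, gave 25 of 27 genes higher, 21 of them by at least 1.5-fold and 1 at least 1.5-fold lower, with a median of 1.21 and background shares of 18.4% higher and 25.4% lower. Both comparisons share the Il10- Foxp3- cells, so they are given side by side only. On the TMM scale, which lowers every ratio of the members to the Il10- Foxp3- cells by 0.19, the members' median was 1.0.

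**Figure D2:**
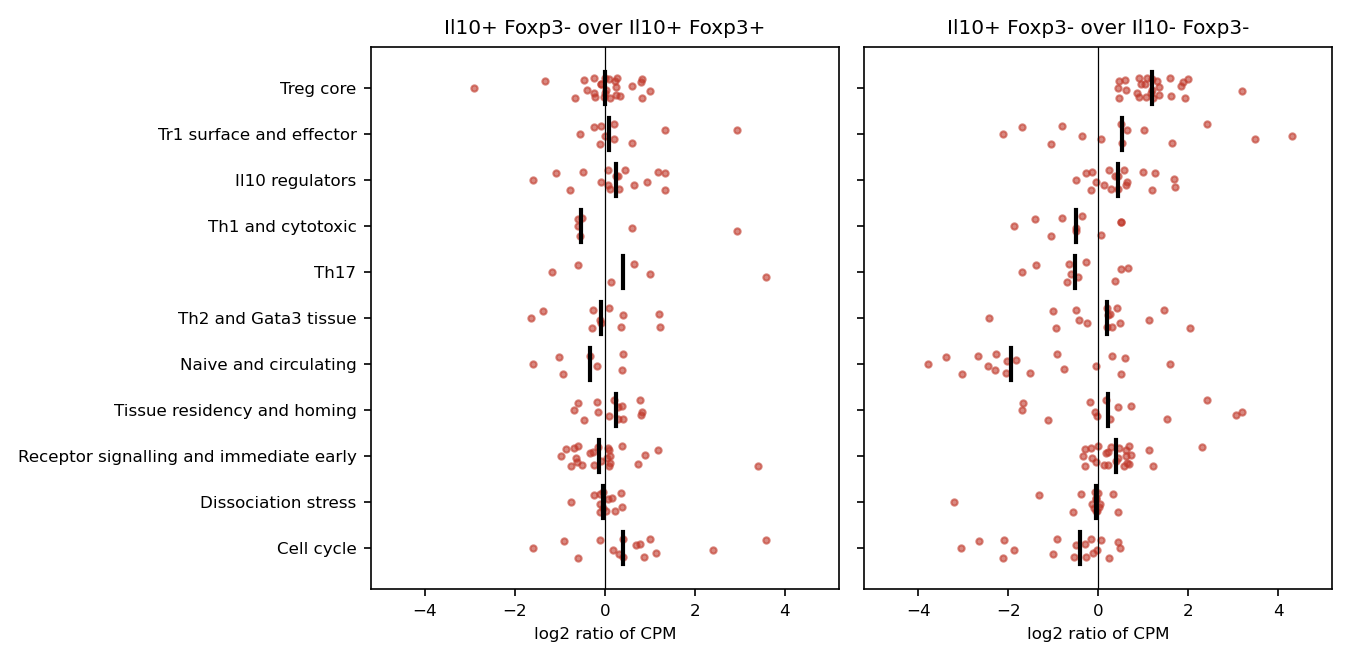
Log2 ratio of CPM of each measured gene (points) and the median (black bar) of 11 gene lists, for the members over the Il10+ Foxp3+ cells (left) and over the Il10- Foxp3- cells (right); a side with 0 counts is set to 3 counts. The Treg core median lies at 0.01 on the left and at 1.19 on the right, and the naive and circulating list lies lowest on the right, at -1.93.

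Tnfrsf9, which encodes the costimulatory receptor 4-1BB, was among the Treg genes with the greatest ratio to the cells with neither gene, at 841 CPM in the members, 708 CPM in the Il10+ Foxp3+ and 210 CPM in the Il10- Foxp3- cells (members over Il10- Foxp3-, log2 ratio 2.0, 1.68 to 2.32). Nt5e, which encodes the ectoenzyme CD73, had a log2 ratio of 1.94 (1.11 to 2.76) from 24 counts in the members, and Ebi3, a subunit of the cytokines IL-27 and IL-35, one of 1.88 (0.97 to 2.77) from 20 counts. Il2ra, which encodes the IL-2 receptor chain CD25, was at 288 CPM in the members, 378 CPM in the Il10+ Foxp3+ and 127 CPM in the Il10- Foxp3- cells. Its interval against the Il10+ Foxp3+ cells contained 0 (log2 ratio -0.39, -0.92 to 0.13), although it was counted in 26 of 120 members (21.7%) and in 50 of 146 Il10+ Foxp3+ cells (34.2%).

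Counted per cell, a panel of 11 measured Treg genes that leaves out Foxp3 (Ikzf2, Ikzf4, Il2ra, Ctla4, Tnfrsf18, Tnfrsf4, Nrp1, Capg, Izumo1r, Gpr83 and Tigit) gave the members means close to those of both Foxp3+ groups. Members had 3.46 ± 1.51 panel genes with a count (mean ± SD over 120 cells), Il10+ Foxp3+ cells 3.64 ± 1.41 (146 cells), Il10- Foxp3+ cells 3.38 ± 1.66 (186 cells) and Il10- Foxp3- cells 1.63 ± 1.67 (598 cells). At least 3 panel genes were present in 87 members (72.5%, 63.6 to 80.3%), against 80.1% of the Il10+ Foxp3+ cells (72.7 to 86.3%), 68.8% of the Il10- Foxp3+ and 26.9% of the Il10- Foxp3- cells. Only 1 member had none of the 11 genes, a cell of 736 counts, against 3 of the Il10+ Foxp3+, 8 of the Il10- Foxp3+ and 198 of the Il10- Foxp3- cells. At an equal depth of 500 counts per cell, the expected number of panel genes was 1.99 in the members, 2.05 in the Il10+ Foxp3+, 1.93 in the Il10- Foxp3+ and 0.922 in the Il10- Foxp3- cells. The cells with neither gene thus included many without any panel gene, while nearly all members had at least 1.

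**Figure D3:**
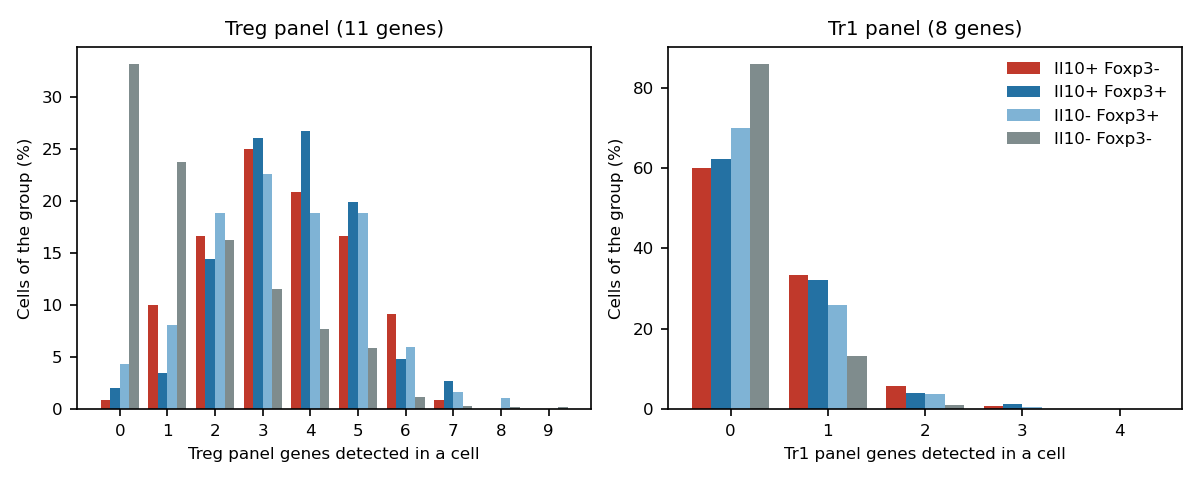
Share of cells (%) of each group by the number of Treg panel genes (left, 11 genes) and Tr1 panel genes (right, 8 genes) with at least 1 count in the cell. In the left panel 0.833% of the members and 33.1% of the Il10- Foxp3- cells have none of the genes, and in the right panel 60% of the members and 62.3% of the Il10+ Foxp3+ cells have none.

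Shares of cells with a count of single markers were also taken. Ctla4 was counted in 78.3% of the members, 84.2% of the Il10+ Foxp3+, 69.4% of the Il10- Foxp3+ and 34.4% of the Il10- Foxp3- cells, with 15.9% in the 63 cells with naive markers. Any of Ikzf2, Ctla4, Tnfrsf18, Tnfrsf4 and Il2ra was counted in 118 of 120 members (98.3%), 97.9% of the Il10+ Foxp3+, 93.0% of the Il10- Foxp3+ and 59.2% of the Il10- Foxp3- cells.

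Members and Il10+ cells just across the Foxp3 gate had similar numbers of Treg panel genes. The mean number of panel genes was 3.46 in the members, 3.62 in the 58 Il10+ cells with exactly 1 Foxp3 count and 3.66 in the 88 Il10+ cells with at least 2. Some single genes differed across that edge, with counts not limited per cell. Ikzf2 was at 599 CPM (490 to 726) in the members and 1055 CPM (852 to 1291) in those 58 cells. Nr4a1 was also lower in the members (542 against 875 CPM), while Rgs1 (1406 against 628 CPM) and Il27ra (219 against 56.1 CPM) were higher. Maf was higher too, at 1994 CPM (1789 to 2216) in the members and 1391 CPM (1157 to 1659) in those 58 cells. In the 88 cells with at least 2 Foxp3 counts Maf was at 1857 CPM (1639 to 2096), which overlaps the members' interval. Ctla4, at 2294 and 2098 CPM, had intervals that overlap (2074 to 2530 and 1808 to 2421). Members with exactly 1 Il10 count, just inside the gate, had 3.33 panel genes (51 cells, median depth 1189 counts), and members with at least 2 had 3.55 (69 cells, median depth 1402 counts). In those 69 cells Ctla4 was at 2769 CPM (2461 to 3106), against 1557 CPM (1275 to 1883) in the 51 cells with 1 Il10 count.

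Similarity over all variable genes was described by nearest neighbours. For each cell the 15 most similar cells were found in 20 principal components computed without Il10 and Foxp3, and the share with a Foxp3 count was taken. On average 46.1% of a member's neighbours had Foxp3, against 48.4% for the Il10+ Foxp3+, 42.6% for the Il10- Foxp3+ and 18.7% for the Il10- Foxp3- cells, with 31.6% of all kept cells having Foxp3. The median was 7 of 15 neighbours in the members, in the Il10+ Foxp3+ and in the Il10- Foxp3+ cells, and 1 of 15 in the Il10- Foxp3- cells. The members ranged from 0 to 12 neighbours with Foxp3, and 1 member had none.

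**Figure D4:**
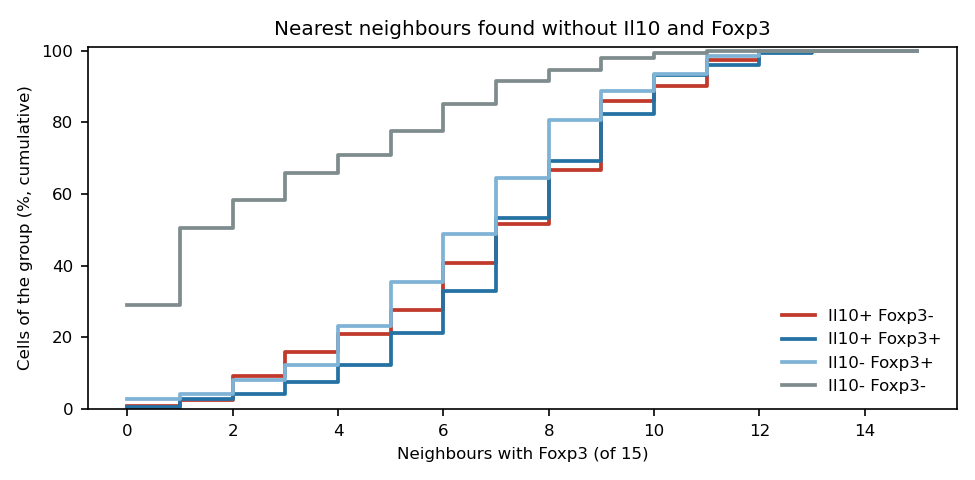
Cumulative share of the cells of each group (%) by the number of their 15 nearest neighbours that have a Foxp3 count, with neighbours found without Il10 and Foxp3. The curves of the members and both Foxp3+ groups run together with a median of 7 neighbours, while the Il10- Foxp3- cells have a median of 1.

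Tr1 surface genes were sparse in every group. Lag3, an inhibitory receptor that binds MHC class II, was counted in 14 of 120 members (11.7%, 6.53 to 18.8%), in 16 of 146 Il10+ Foxp3+ cells (11%, 6.40 to 17.2%), in 4.84% of the Il10- Foxp3+ cells and in 4 of 598 Il10- Foxp3- cells (0.669%). None of the 63 cells with naive markers had it. Its level was 92.2 CPM in the members and 99.9 CPM in the Il10+ Foxp3+ cells (log2 ratio -0.12, -1.13 to 0.87), and against the 4.65 CPM of the cells with neither gene the members' log2 ratio was 4.31 (2.68 to 6.35). Itga2 had 1 count in the members, 3 in the Il10+ Foxp3+, 0 in the Il10- Foxp3+ and 1 in the Il10- Foxp3- cells. With so few Itga2 counts, cells positive for both Lag3 and Itga2 could not be assessed in the members: 0 of 120 members and 1 Il10+ Foxp3+ cell had a count of both.

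Of the Tr1 panel (8 genes, among them Lag3, Itga2, Havcr2, Cd226, Pdcd1, Eomes and Il21), 48 of 120 members had at least 1 gene (0.475 ± 0.648 genes, mean ± SD), against 55 of 146 Il10+ Foxp3+ cells (0.445 ± 0.644), 56 of 186 Il10- Foxp3+ cells (0.349 ± 0.580) and 85 of 598 Il10- Foxp3- cells (0.152 ± 0.386). At 500 counts per cell the expected number was 0.213 in the members, 0.203 in the Il10+ Foxp3+, 0.159 in the Il10- Foxp3+ and 0.0750 in the Il10- Foxp3- cells. The members thus had more Tr1 panel genes than the cells with neither gene and nearly the same number as the Il10+ Foxp3+ cells. Eomes, a transcription factor of a Tr1 population in mice, had 0 counts in the members and 0 in the Il10+ Foxp3+ cells. These counts of 0 allow up to 3.03% of the members and up to 2.49% of the Il10+ Foxp3+ cells to have a count (exact 95% limits), which limits cells with a count and not cells expressing the gene.

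Over the longer list of 20 Tr1 surface and effector genes, 10 had at least 10 counts in the members and Il10+ Foxp3+ cells, 5 higher and 5 lower in the members, with 3 at least 1.5-fold higher and 0 at least 1.5-fold lower, beside 21.5% and 22.7% over all genes, and a median log2 ratio of 0.10. The sign depended on the setting, since the median was -0.02 on the TMM scale and -0.23 with the gate set at 2 counts of Il10. Against the cells with neither gene, 9 of 14 were higher and 5 lower in the members, with a median of 0.52. At least 1.5-fold higher were 6 of the 14 and at least 1.5-fold lower 4, beside 20% and 25.2% over all genes. The Il10+ Foxp3+ cells, set against the same cells, gave 6 of 14 higher and 8 lower, with a median of -0.38. Of those, 5 were at least 1.5-fold higher and 6 at least 1.5-fold lower, beside 18.4% and 25.4% over all genes. The cytotoxic protease granzyme B gave 228 of the 432 counts of this list in the members. Gzmb was at 1314 CPM in the members, 1138 CPM in the Il10+ Foxp3+, 577 CPM in the Il10- Foxp3+ and 117 CPM in the Il10- Foxp3- cells, and it was counted in 40% of the members, 41.8% of the Il10+ Foxp3+, 24.2% of the Il10- Foxp3+ and 5.18% of the Il10- Foxp3- cells and in 4.76% of the cells with naive markers. Its log2 ratio was 0.21 (-0.06 to 0.47) to the Il10+ Foxp3+ cells and 3.49 (3.14 to 3.84) to the cells with neither gene, or 2.87 (2.19 to 3.57) with 1 count per cell at most. Gzmb and Maf were counted together in 42 members (35.0%), in 33.6% of the Il10+ Foxp3+ cells and in 4.52% of the Il10- Foxp3- cells. Perforin (Prf1) and Gzmk had 0 counts in all 4 groups.

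Il27ra, the specific chain of the receptor for IL-27, a cytokine that induces Tr1 cells in mice, was higher in the members than in the Il10+ Foxp3+ cells. It had 38 counts in 25 members (219 CPM) and 20 counts in 16 Il10+ Foxp3+ cells (86.9 CPM), with 116 CPM in the Il10- Foxp3+ and 139 CPM in the Il10- Foxp3- cells. The log2 ratio of the members to the Il10+ Foxp3+ cells was 1.33 (0.52 to 2.19), and 1.0 (0.04 to 2.0) with every cell limited to 1 count per gene. Against the cells with neither gene it was 0.65 (0.09 to 1.19), and 0.34 (-0.36 to 0.99) with 1 count per cell at most.

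Regulators of Il10 were compared next. Of 20 listed genes, 17 were measured against the Il10+ Foxp3+ cells, 12 higher and 5 lower in the members, 5 and 3 of them by at least 1.5-fold, near the shares of 21.5% and 22.7% over all genes, with a median log2 ratio of 0.25 (0.13 on the TMM scale). Against the cells with neither gene, 14 of 19 were higher in the members, with a median of 0.44. At least 1.5-fold higher were 7 and lower by that much 0, beside 20% and 25.2% over all genes. The Il10+ Foxp3+ cells, set against the same cells, gave 11 of 19 higher and 8 lower, with a median of 0.07. Of those, 7 were at least 1.5-fold higher and 1 at least 1.5-fold lower, beside 18.4% and 25.4% over all genes. Maf, the c-Maf factor that activates Il10 in many T cell subsets, was at 1994 CPM in the members, 1677 CPM in the Il10+ Foxp3+, 1522 CPM in the Il10- Foxp3+ and 835 CPM in the Il10- Foxp3- cells. Single members had 0 to 14 counts of Maf with a median of 2, against 0 to 12 with a median of 2 in the Il10+ Foxp3+ cells. The log2 ratio of those 2 groups was 0.25 (0.04 to 0.46), and its interval contained 0 on the TMM scale (0.13, -0.08 to 0.35).

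Rora, a nuclear receptor of tissue T cells, was at 473 CPM in the members and 300 CPM in the Il10+ Foxp3+ cells (log2 ratio 0.66, 0.18 to 1.14), and 0.36 (-0.32 to 1.04) on the log2 scale with 1 count per cell at most. Prdm1, which encodes Blimp-1, another activator of Il10, was lower in the members at 69.2 CPM than in the Il10+ Foxp3+ cells at 148 CPM (log2 ratio -1.09, -2.18 to -0.11), from 12 and 34 counts. The receptor for IL-21, Il21r, was at 51.9 CPM in the members and 156 CPM in the Il10+ Foxp3+ cells (-1.59, -2.83 to -0.51). With every cell limited to 1 count per gene, both intervals contained 0. Batf and Irf4 are factors that cooperate in effector T cells. Batf was at 86.4 CPM in the members and 122 CPM in the Il10+ Foxp3+ cells, and Irf4 at 98.0 CPM in the members and 43.4 CPM in the Il10+ Foxp3+ cells, with intervals that contained 0 (log2 ratio -0.49, -1.5 to 0.46 for Batf and 1.17, -0.04 to 2.46 for Irf4). Ahr, the aryl hydrocarbon receptor, had 11 counts in the members and 12 in the Il10+ Foxp3+ cells (0.28, -1.04 to 1.59).

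Ikzf2, which encodes Helios, was lower in the members than in both Foxp3+ groups. It was at 599 CPM in the members, 951 CPM in the Il10+ Foxp3+, 823 CPM in the Il10- Foxp3+ and 321 CPM in the Il10- Foxp3- cells. The log2 ratio of the members was -0.67 (-1.02 to -0.32) to the Il10+ Foxp3+ cells and 0.90 (0.56 to 1.23) to the cells with neither gene. The difference lay in counts per cell more than in the number of cells. Ikzf2 was counted in 45.8% of the members (36.7 to 55.2%) and in 52.1% of the Il10+ Foxp3+ cells (43.6 to 60.4%), its highest count was 7 in a member and 19 in an Il10+ Foxp3+ cell, and with every cell limited to 1 count the ratio was -0.11 (-0.64 to 0.41). Gata3, which marks a Helios-positive Treg population of the gut, was at 1798 CPM in the members, 1920 CPM in the Il10+ Foxp3+ and 1288 CPM in the Il10- Foxp3- cells (members over Il10+ Foxp3+, -0.09, -0.31 to 0.12). Ikzf2 and Gata3 were counted together in 31.7% of the members, 37.0% of the Il10+ Foxp3+ cells and 15.6% of the Il10- Foxp3- cells.

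Penk, which encodes the opioid precursor proenkephalin and is made by Treg cells of several tissues, was at 127 CPM in the members and 321 CPM in the Il10+ Foxp3+ cells (-1.34, -2.10 to -0.64). Of the 74 counts in the Il10+ Foxp3+ cells 29 came from 1 cell, and with each cell limited to 1 count the ratio was -0.02 (-1.37 to 1.28). Itgae, the alpha chain of the integrin CD103 that binds epithelial E-cadherin, was higher in the members, at 300 CPM in 31 cells, against 169 CPM in 23 Il10+ Foxp3+ cells and 32.5 CPM in 20 Il10- Foxp3- cells. Its log2 ratio was 0.82 (0.20 to 1.46) to the Il10+ Foxp3+ cells, 0.79 (-0.04 to 1.63) with each cell limited to 1 count, and 3.2 (2.51 to 3.92) to the cells with neither gene. Rgs1, a regulator of G-protein signalling that dampens chemokine receptors in gut T cells, was at 1406 CPM in the members, 804 CPM in the Il10+ Foxp3+ and 1035 CPM in the Il10- Foxp3- cells. That ratio of 0.81 (0.53 to 1.09) to the Il10+ Foxp3+ cells was 0.31 (-0.21 to 0.83) with 1 count per cell at most.

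**Figure D5:**
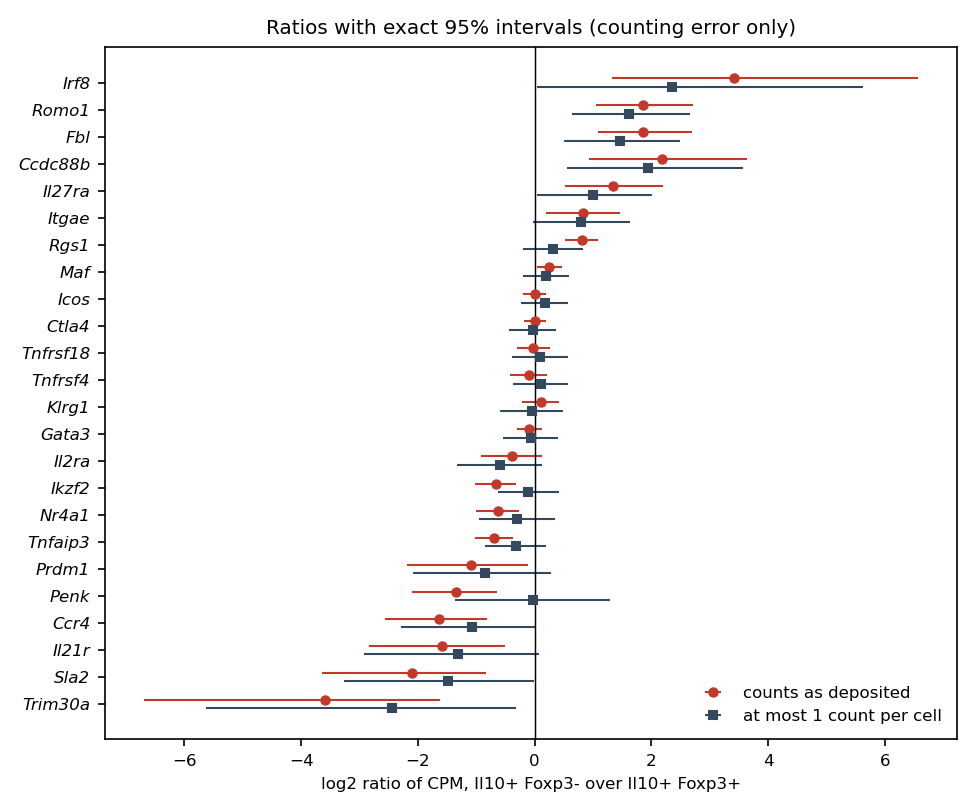
Log2 ratio of CPM of 24 genes in the members over the Il10+ Foxp3+ cells with exact 95% intervals, from the counts as deposited (circles) and with at most 1 count per cell (squares). Ctla4 and Icos lie at 0.00, Il27ra at 1.33 and 1.0, and Ikzf2 at -0.67 and -0.11.

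The comparison was then taken over all genes. Of 2376 genes with at least 30 counts in at least 10 cells, 91 (3.83%) were at least 2-fold higher in the members and 118 (4.97%) at least 2-fold lower, a split that was 63 and 154 on the TMM scale. Against the cells with neither gene, 327 of 5111 genes (6.4%) were at least 2-fold higher and 584 (11.4%) at least 2-fold lower, or 190 and 802 on the TMM scale. The 2 comparisons differ in how many cells and genes they hold, so their shares are not a measure of distance.

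Some of the genes with the highest ratios to the Il10+ Foxp3+ cells rested on few cells. Ccl5, a chemokine of cytotoxic and Th1 cells, had 29 counts in 6 members (167 CPM), 17 of them in 1 cell, and 5 counts in 5 Il10+ Foxp3+ cells (21.7 CPM). Atxn7, a subunit of the SAGA chromatin complex, had 40 counts in 12 members, 11 of them in 1 cell. Spread over more cells were Fbl, the nucleolar methyltransferase fibrillarin, with 52 counts in 30 members at 300 CPM against 82.5 CPM in the Il10+ Foxp3+ cells (1.86, 1.08 to 2.70), and Romo1, a mitochondrial inner membrane protein, with 49 counts in 31 members at 282 CPM against 78.2 CPM (1.85, 1.05 to 2.72). Mat2b, a regulatory subunit of methionine adenosyltransferase, was at 242 CPM in the members and 65.2 CPM in the Il10+ Foxp3+ cells (1.89, 1.01 to 2.85). With 1 count per cell at most, those 3 ratios were 1.46 (0.50 to 2.49), 1.61 (0.64 to 2.67) and 1.42 (0.37 to 2.54). Irf8, a transcription factor induced by antigen receptor and interferon signals, had 16 counts in 8 members and 2 counts in 2 Il10+ Foxp3+ cells (3.41, 1.32 to 6.57).

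At the lower end stood Trim30a, an interferon-induced member of the TRIM family, with 2 counts in the members (11.5 CPM) and 32 counts in 14 Il10+ Foxp3+ cells (139 CPM; -3.59, -6.70 to -1.62). Sla2, an adaptor that dampens T cell receptor signals, had 6 counts in the members and 34 in the Il10+ Foxp3+ cells (-2.09, -3.64 to -0.83). Ccr4, a chemokine receptor of Treg and Th2 cells, was at 86.4 CPM in the members, 269 CPM in the Il10+ Foxp3+, 183 CPM in the Il10- Foxp3+ and 165 CPM in the Il10- Foxp3- cells, the lowest of the 4 groups (members over Il10+ Foxp3+, -1.64, -2.56 to -0.81). With 1 count per cell at most, the intervals of Trim30a (-2.45, -5.63 to -0.33) and Sla2 (-1.49, -3.27 to -0.01) left out 0, and that of Ccr4 (-1.08, -2.29 to 0.02) contained it.

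Genes of antigen receptor and NF-kB signalling, 24 of 28 measured against the Il10+ Foxp3+ cells, were 11 higher and 13 lower in the members. Of these, 4 and 7 differed by at least 1.5-fold, near the 21.5% and 22.7% over all genes, and the median was -0.13. Against the Il10- Foxp3- cells 18 of 25 were higher and 7 lower, with a median of 0.40. At least 1.5-fold higher were 9 and lower by that much 0, beside 20% and 25.2% over all genes. The Il10+ Foxp3+ cells, set against the same cells, had a median of 0.39. Nr4a1, an immediate early gene of the T cell receptor, was at 542 CPM in the members, 838 CPM in the Il10+ Foxp3+ and 336 CPM in the Il10- Foxp3- cells (members over Il10+ Foxp3+, -0.63, -1.0 to -0.27). Tnfaip3, which encodes the NF-kB inhibitor A20, was at 686 CPM in the members, 1108 CPM in the Il10+ Foxp3+ and 501 CPM in the Il10- Foxp3- cells (-0.69, -1.02 to -0.37). Nfkbia, the inhibitor IkBa, was at 2760 CPM in the members, 3488 CPM in the Il10+ Foxp3+ and 1788 CPM in the Il10- Foxp3- cells (-0.34, -0.50 to -0.17). For all 3 genes the interval contained 0 with 1 count per cell at most. Genes that tissue dissociation induces gave a median of -0.04 against the Il10+ Foxp3+ cells over 13 genes and of -0.05 against the cells with neither gene over 16, with 0 genes at least 1.5-fold higher in either comparison.

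Cytokine genes of other helper lineages and the Th1 factor gene were rare in the members, while Gata3, the Th2 factor gene that Treg cells also express, was frequent. At least 1 of 5 Th2 panel genes was counted in 70 members, and Gata3 alone in 70 (58.3%), against 64.4% of the Il10+ Foxp3+, 57.5% of the Il10- Foxp3+ and 50.3% of the Il10- Foxp3- cells. Ifng, the Th1 cytokine, was counted in 2 members (1.67%), in 0 of 146 Il10+ Foxp3+ cells, in 2.69% of the Il10- Foxp3+ and in 3.85% of the Il10- Foxp3- cells. Tbx21, the gene of the Th1 factor T-bet, was counted in 5 members (4.17%), 4 Il10+ Foxp3+ cells (2.74%), 1 Il10- Foxp3+ cell and 30 Il10- Foxp3- cells (5.02%). Il17a, a Th17 cytokine gene, was counted in 1 member, in 0 cells of both Foxp3+ groups and in 8 Il10- Foxp3- cells. With so few positive cells, differences between the members and the other groups were not detectable at this depth. The Th2 cytokine genes Il4, Il5 and Il13 had 0 counts in the members. Relative to the cells with neither gene the Th1 and cytotoxic list had a median log2 ratio of -0.50 (3 of 10 higher), the Th17 list one of -0.52 (3 of 10 higher), the Th2 and Gata3 list one of 0.20 (10 of 16 higher) and the Tfh list one of -0.01 (3 of 7 higher). Relative to the Il10+ Foxp3+ cells the medians were -0.53 over 6 Th1 and cytotoxic genes, 0.40 over 6 Th17 genes, -0.09 over 11 Th2 genes and -0.22 over 4 Tfh genes. Cell cycle genes had a median of 0.41 relative to the Il10+ Foxp3+ cells, with 11 of 15 higher, 7 of them by at least 1.5-fold and 3 lower by that much (21.5% and 22.7% over all genes), and of -0.40 relative to the Il10- Foxp3- cells, with 4 of 18 higher.

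Genes of naive and circulating T cells were low in the members. When set against the cells with neither gene, 14 of 18 were lower, 13 of them by at least 1.5-fold, beside 25.2% over all genes, with a median of -1.93. Tcf7, the TCF-1 factor of naive and memory-like cells, had 6 counts in the members (34.6 CPM), 0 in the Il10+ Foxp3+ cells, 38.7 CPM in the Il10- Foxp3+ and 189 CPM in the Il10- Foxp3- cells (members over Il10- Foxp3-, -2.45, -3.92 to -1.30). S1pr1, the receptor that guides T cells out of tissue, was at 11.5 CPM in the members and 121 CPM in the Il10- Foxp3- cells (-3.39, -6.45 to -1.5). Ccr7, which directs cells to lymph nodes, was at 5.76 CPM in the members and 79.0 CPM in the Il10- Foxp3- cells (-3.78, -9.10 to -1.25, and -2.57, -7.92 to 0.03, with 1 count per cell at most). Cd27, a costimulatory receptor on the same list, ran the other way, at 588 CPM in the members, 452 CPM in the Il10+ Foxp3+ and 195 CPM in the Il10- Foxp3- cells.

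Chemokine receptors differed in direction relative to the cells with neither gene. Ccr9, the gut-homing receptor, was at 156 CPM in 10 members, 91.2 CPM in the Il10+ Foxp3+ and 18.6 CPM in the Il10- Foxp3- cells (members over Il10- Foxp3-, 3.07, 2.12 to 4.06, and 1.86, 0.51 to 3.16, with 1 count per cell at most). Ccr1 was at 156 CPM in 19 members and 25.6 CPM in the Il10- Foxp3- cells (2.61, 1.74 to 3.49), and Ccr2 at 1118 CPM, against 921 CPM in the Il10+ Foxp3+ and 388 CPM in the Il10- Foxp3- cells (members over Il10- Foxp3-, 1.53, 1.26 to 1.79, and 0.92, 0.48 to 1.35, with 1 count per cell at most). Cxcr3, a receptor of Th1 cells, had 6 counts in the members at 34.6 CPM and was at 91.8 CPM in the Il10- Foxp3- cells (log2 ratio -1.41). Cxcr6, a receptor of tissue-resident cells, was at 334 CPM in the members and 380 CPM in the Il10- Foxp3- cells (log2 ratio -0.18), and Ccr4, given above, was also lower (log2 ratio -0.93). Lgmn, the lysosomal protease legumain, was at 167 CPM in 20 members and 27.9 CPM in the Il10- Foxp3- cells (2.58, 1.75 to 3.43), and Arl5a, a small GTPase of the Golgi, at 1418 CPM in 76 members and 282 CPM (2.33, 2.07 to 2.59, and 1.66, 1.23 to 2.10, with 1 count per cell at most). Against the Il10+ Foxp3+ cells, the reported and alternative runs gave log2 ratios from -0.36 to 0.15 for Lgmn and from -0.06 to 0.21 for Arl5a. For Ccr1 they ran from 0.52 to 0.97. The list of tissue residency and homing genes as a whole had 8 of 14 genes higher and 6 lower, with a median of 0.22 against the Il10- Foxp3- cells and of 0.24 against the Il10+ Foxp3+ cells. The lowest ratios to the cells with neither gene were led by epithelial genes. Muc2, the intestinal mucin, had 1 count in the members and 1274 in the Il10- Foxp3- cells, 869 of them in 1 cell and all of them in 17 cells, so these ratios rest on few cells of that group.

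The members were also divided by the Treg panel. There were 87 members with at least 3 panel genes (median depth 1429 counts), 32 with 1 or 2 (median depth 1082 counts) and 1 with none. Of the 32 members with 1 or 2 panel genes, 26 had Icos, 27 had Maf, 16 had Gzmb, 13 had a Tr1 panel gene and 5 had Lag3. Of the 87 with at least 3, 76 had Icos, 73 had Maf, 31 had Gzmb, 35 had a Tr1 panel gene and 9 had Lag3. The members with more panel genes were also the deeper ones, and the part of depth in this division was not tested.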

How the data were processed

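The authors deposited 1 table of counts per barcode and gene (1985 barcodes, 25724 gene symbols). TopHat2, SAMtools and the mm10 build are named per the submitters' processing notes. The counting tool and any collapse of molecular identifiers were not given in the sources used here. Barcodes carry no sample, and none was duplicated, so edgeR's test was not run and replicates could not be left out. Cells with at least 500 counts, 200 genes and under 20% mitochondrial counts were kept. Doublets were kept, as the selection has it. Counts were summed per group of cells and set to CPM. Ratios have exact conditional intervals and shares exact Clopper-Pearson intervals at 95%, and both cover counting error only. The ratio intervals were checked only on simulated Poisson counts, so clumping of counts in single cells was not part of that check. A side with 0 counts was set to 3. List genes needed 10 counts and other genes 30 counts in 10 cells. Expected shares at 500 counts are hypergeometric. Neighbours used 2000 variable genes scaled to 10000 counts per cell, leaving out Il10, Foxp3, antigen receptor, ribosomal, mitochondrial, immunoglobulin and sex-linked genes (scanpy 1.11.5, scikit-learn 1.9.0). TMM factors came from edgeR 4.0.16. Coordinates are from GENCODE vM21, to which 25033 symbols (97.3%) matched. Genes in the text were taken mainly from the 12 highest and lowest ratios per comparison whose interval leaves out 0, up to 6 genes per list by ratio over interval width, and fixed markers; other genes in the text were named after their values were seen, as panel or list members. Members and gene lists were chosen with earlier results of these data known. Cells with naive markers were added as a background after the data were seen. Some genes of the lists and panels are not reported here by name.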

Additional observations from a re-analysis of the deposited data

Results flagged for a closer look

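Barcodes that the cell filters left out, which enter no comparison, also held Il10. Of 935 such barcodes 23 had an Il10 count (2.46%) and 19 of them had no Foxp3 count. These 19 had a median of 164 counts (51 to 506). Ctla4 was counted in 4 of them, Icos in 6, and Ikzf2 and Gzmb in 1 each. Their part in the results was not tested.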

How the results depend on the processing

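The medians of the Treg core, Tr1 and Il10 regulator lists stayed inside the order-statistic interval of the reported median under every alternative run. For the Tr1 list that says little, as its intervals were wide. They ran from -0.24 to 1.33 against the Il10+ Foxp3+ and from -1.04 to 2.42 against the Il10- Foxp3- cells. Against the Il10+ Foxp3+ cells the runs gave medians from -0.11 to 0.10 for the Treg core list and from -0.23 to 0.28 for the Tr1 list. The share of a member's neighbours with Foxp3 stayed between 43.1 and 51.9%, beside 46.1%. The numbers of genes past 2-fold depended on the filter. Against the Il10+ Foxp3+ cells the number was 209, and it was 111 with each cell limited to 1 count per gene, 139 with a gate of at least 2 Il10 counts, 27 with at least 60 counts per gene and 2325 with all genes of more than 3 counts. Against the Il10- Foxp3- cells it was 911, and it was 314 with at least 60 counts per gene and 3339 with all genes of more than 3 counts. Of 1918 values of 149 single genes under the alternatives, 1830 stayed within the interval and the direction of the reported value, 85 moved outside it, most of them with each cell limited to 1 count, and 3 changed sign. Against the Il10+ Foxp3+ cells Thy1 had a log2 ratio of -0.072 with 1 count per cell at most and Fos one of -0.23 with a gate of at least 2 Il10 counts. Against the Il10- Foxp3- cells Krt8 had one of 0.20 without the cells that carry 2 markers of other cell types. Their cause was not tested. No paired analysis was possible because the barcodes carry no sample, and for the same reason no sample could be left out in turn. With 120 members, a gene of fewer than 10 counts says little, and differences between mice cannot be told apart from differences between cells.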
